A study of Arabidopsis thaliana with 32 samples.

Results

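Transcript levels of Arabidopsis seedlings carrying the *med14* mutation were set against those of *pif4-2* seedlings, both grown at 20°C, in 8 of the 32 libraries of the study. The 4 *med14* and the 4 *pif4-2* libraries were chosen by their labels alone, and every gene of the table entered the comparison. Both lines are T-DNA insertion mutants in the Col-0 ecotype, each a single line. The line appears as *med14-2* in the sample labels and as *med14* in the study, which was read as 1 line. After a cold, dark stratification on agar medium, seedlings of all groups spent 96 h in continuous red (R) light at a fluence rate of 50 µmol per m2 and s. The study calls the *med14* allele hypomorphic. RNA came from seedlings that were not dissected, and the replicates of a group are labelled as biological ones. Whether they came from separate sowings is not given in the sources used here, and p-values measure the spread between these samples. The same 2 genotypes at 27°C (4 libraries each) served as a second comparison that shares no library with the first, and 4 Col-0 libraries at 20°C gave levels only.

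MED14 is a core subunit of Mediator, the complex that links DNA-bound transcription factors to RNA polymerase II, and it joins the tail of the complex to its main body. PIF4 is a bHLH transcription factor that phytochromes restrain in R light and that drives growth and auxin genes in warm or shaded seedlings. A comparison of both mutants at the cool temperature asks how the transcriptomes of the *med14* and *pif4-2* lines differ before any response to warmth.

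All values below are FPKM (fragments per kilobase of exon, relative to all mapped fragments of the library) after division by a scaling factor per library. Fold changes are *med14* over *pif4-2* on the log2(FPKM + 0.25) scale, which understates changes of genes with low FPKM. The *med14* libraries held 13871417 to 16883321 mapped fragments, and the *pif4-2* libraries held 12762811 to 13097121, as recovered from the FPKM values. Listed nuclear genes took 79.0 to 87.1% of these fragments in *med14* and 68.4 to 86.0% in *pif4-2*, where replicate 1 had the lowest share and the other 3 had at least 80.4%. Green tissue genes were high in every library (summed FPKM of 49 nuclear photosynthesis genes 96280 to 116831 in *med14* and 108650 to 143155 in *pif4-2*) and so was the root marker *PYK10* (2812 and 2621 FPKM on average). Floral markers, which seedlings should lack, summed to 0.0941 to 0.263 FPKM in *med14* and 0.255 to 0.496 in *pif4-2*. In RNA from whole seedlings, fewer cells of a type and less RNA per cell cannot be told apart.

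The transcripts of the mutated genes were read first, as a check of the labels. *PIF4* (AT2G43010, TAIR10 chromosome 2, 17886101 to 17889087) had 6.69, 7.94, 7.79, and 6.15 FPKM in the *med14* libraries, against 5.19, 6.32, 6.89, and 5.27 in the *pif4-2* libraries and 7.17 ± 1.76 (SD, n = 4) in Col-0. The *med14* and *pif4-2* ranges overlapped (log2 change 0.26, standard error 0.13, adjusted p = 0.122 by limma; exact permutation test, two-sided, p = 0.143). *MED14* (AT3G04740, TAIR10 chromosome 3, 1293798 to 1300792) stood at 8.80, 8.90, 9.62, and 9.25 FPKM in the libraries labelled *med14-2*, against 3.95, 4.95, 4.37, and 4.3995 in the *pif4-2* libraries and 5.47 ± 0.514 (SD, n = 4) in Col-0. All 4 libraries labelled *med14-2* thus lay above all 4 *pif4-2* libraries (log2 change 1.012, standard error 0.10, adjusted p = 8.40e-06; p = 0.0286 in the exact two-sided permutation test, which cannot go lower with 4 libraries in each group). The labels name the line and give no *MED14* level. The study, citing earlier work, describes the line as one in which *MED14* expression is strongly reduced. A higher *MED14* transcript goes against that description. The table gives 1 value per gene, so where along the gene these fragments lie was not tested. The *MED14* change sits at the 2-fold limit and was not called without med14 replicate 3 or pif4-2 replicate 1 (log2 change 0.96 to 1.06, adjusted p up to 8.42e-05 with 1 library left out). *HMR*, the gene of a PIF4 coactivator that is intact in both lines, had 17.79, 19.9, 15.67, and 13.1 FPKM in *med14*, against 19.2, 27.6, 19.4, and 20.4 in *pif4-2* (log2 change −0.38; exact permutation test, two-sided, p = 0.0857).

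The genes that flank both insertions were then read, a choice made after their values were seen. *PAO2* (AT2G43020, TAIR10 chromosome 2, 17891503 to 17894635), a polyamine oxidase gene and the next listed gene after *PIF4*, had 6.40, 6.42, 6.29, and 6.48 FPKM in *med14*, against 22.5, 37.3, 40.0, and 37.3 in *pif4-2*. Col-0 stood at 7.4004 ± 0.863 FPKM (SD, n = 4), close to *med14*, so the *pif4-2* libraries are the ones that stand apart (log2 change −2.34, standard error 0.15, adjusted p = 2.26e-07). *RPL3A*, the gene after *PAO2*, had 432 FPKM in *med14* and 588 in *pif4-2*, a difference that did not reach the 2-fold limit. *NAC042*, the listed gene before *PIF4*, was too low to be tested at 20°C, with 0.234, 0.230, 0.661, and 0.336 FPKM in *med14*, against 0, 0.170, 0, and 0.113 in *pif4-2*. These ranges did not overlap, and at 27°C *NAC042* was called higher in *med14* (log2 change 1.90). Next to *MED14*, *IAA16* averaged 44.8 ± 4.18 FPKM in *med14* and 30.5 ± 1.70 in *pif4-2* (SD, n = 4 each; log2 change 0.54), and *PCMP-E81* averaged 1.95 and 1.68.

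**Figure D1:**
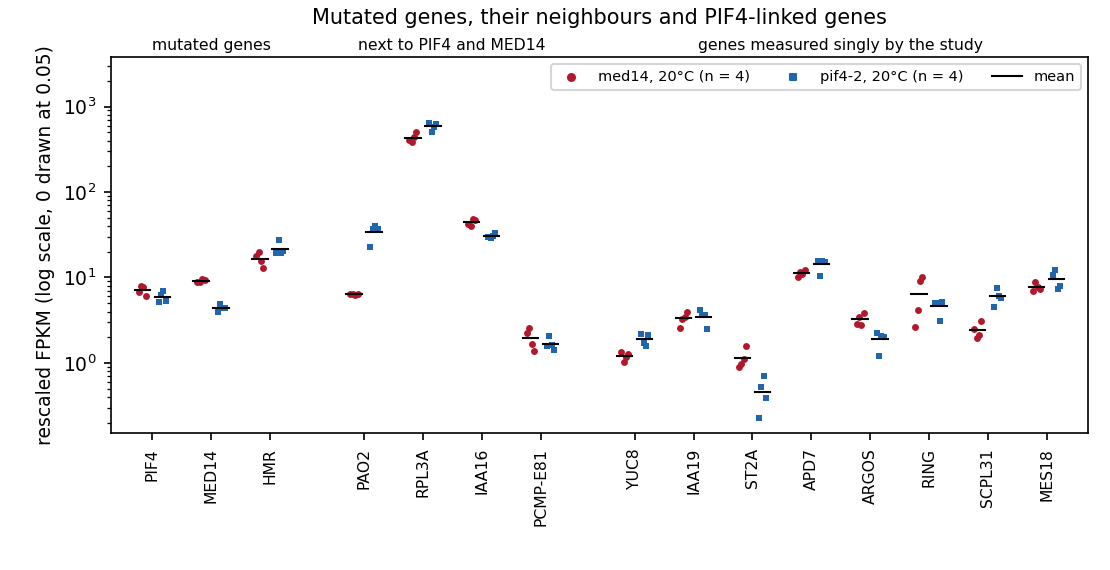
Rescaled FPKM (log axis) of the mutated genes, of their neighbours, and of 8 genes such as YUC8 and IAA19, with 1 point per library (circles, med14; squares, pif4-2; n = 4 each) and a line at each mean. The pif4-2 points of PAO2 lie far above those of med14, and the med14 points of MED14 lie above those of pif4-2.

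Auxin and growth genes such as *YUC8* and *IAA19* had single assays in the study, and these form a list of their own. Between *med14* and *pif4-2*, 8 of the 9 could be tested and 1 was called lower (12.5%, beside 2.79% of all tested genes). *SCPL31*, a serine carboxypeptidase-like gene, had 2.52, 1.96, 2.14, and 3.13 FPKM in *med14*, against 4.47, 7.64, 6.05, and 5.83 in *pif4-2* (log2 change −1.21, standard error 0.17, adjusted p = 1.21e-04). The auxin synthesis gene *YUC8* stood at 1.36, 1.02, 1.19, and 1.26 FPKM in *med14*, against 2.19, 1.70, 1.59, and 2.11 in *pif4-2*. These *YUC8* ranges did not overlap, but the change was below 2-fold (log2 change −0.56, adjusted p = 0.0156). *IAA19*, an auxin-induced repressor of auxin signalling, had 2.60, 3.26, 3.48, and 3.92 FPKM in *med14*, against 4.15, 3.62, 3.64, and 2.46 in *pif4-2*, with overlapping ranges (log2 change −0.05). The sulfotransferase gene *ST2A* and the organ size gene *ARGOS* had log2 changes of 0.99 and 0.73 and did not pass the threshold. *APD7*, *MES18*, and the RING-domain gene listed as *RING* had log2 changes of −0.32, −0.27, and 0.31, and *IAA29* was too low to be tested. None of 21 tested PIF, phytochrome, and shade genes was called by limma in either direction, and 8 were at an unadjusted p under 0.05, beside 43.7% of all tested genes. The list held the phytochrome kinase substrate genes *PKS1* and *PKS2*, at log2 changes of 0.87 and 0.81.

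Over the whole table, 18312 genes were tested and 693 (3.78%) were called, which asked for an adjusted p under 0.001, a change of 2-fold or more, and over 1 FPKM in the group with the larger mean. Of these, 182 (0.994% of all tested) were higher in *med14* and 511 (2.79%) were lower. The 4 *med14* and 4 *pif4-2* values did not overlap for 5846 genes (31.9%), all 693 called genes among them. At an adjusted p under 0.05 and any fold, 2673 genes (14.6%) were higher in *med14* and 3459 (18.9%) were lower, so that most differences were small. The median size of the called log2 changes was 1.33 for higher and 1.28 for lower genes, and 24 higher and 56 lower genes passed 4-fold. The Col-0 mean lay between both mutants for 117 of the 182 genes called higher and for 436 of the 511 called lower. It lay above both for 1 and 50 of them, and below both for 64 and 25.

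The balance of the calls depends on the scaling. Without rescaling, the median log2 change of all tested genes was 0.243 in place of 0.0056, and 480 genes were called higher and 260 lower (64.9% higher, against 26.3% after rescaling). Every change given here is relative to that shift. Of the 511 genes called lower, 255 were also called lower without rescaling, and all 182 called higher were also called higher. Of the called genes named in the text, *SCPL31*, *DFR*, *CHIL*, *PAP1*, *5MAT*, *ERD10*, *NSP3*, *ESP*, *ESM1*, *FMO GS-OX2*, *IPMI1*, *XTH5*, *XTH9*, *XTH21*, *XTH32*, *EXPB3*, *EXPA4*, *GA3OX1*, *EPFL9*, *COPT2*, *FRO5*, *VSP2*, *FLN1*, *FSD2*, *MTPA2*, and *PHO1;H1* were not called without rescaling. The same holds for *MT2A*, *ROC3*, *CPN60A*, and *CPN20*, which are named at the end. Leaving out *med14* replicate 3 lowered the count of higher genes to 106.

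**Figure D2:**
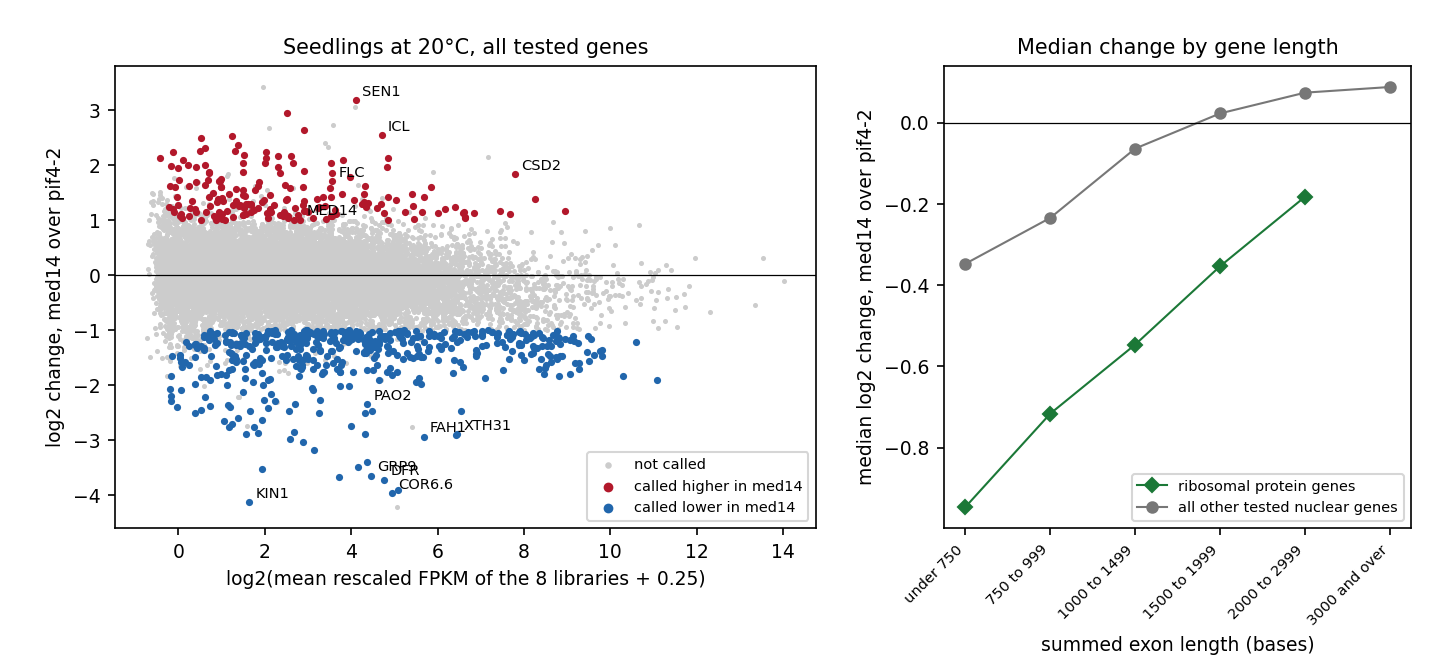
Left, log2 change of each tested gene (med14 over pif4-2) against its mean level on a log2 axis, with called genes in colour. Right, median log2 change by summed exon length for ribosomal protein genes and for all other tested nuclear genes. Calls lower in med14 reach the most abundant genes, and both medians run lower as genes get shorter.

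Changes also followed gene length. Among nuclear genes other than those of ribosomal proteins, the median log2 change was −0.35 for the 704 genes with under 750 bases of exon, −0.23 from 750 to under 1000 bases, −0.06 from 1000 to under 1500, 0.02 from 1500 to under 2000, 0.07 from 2000 to under 3000, and 0.09 from 3000 bases on. In the shortest class 10.9% were called lower and 1.14% higher, and in the longest 0.434% and 0.478%. The median exon length was 1618.5 bases for genes called higher, 1053 for genes called lower, and 1785 for all tested nuclear genes. When the trend with length was removed from each library, 221 genes were called higher and 325 lower, of which 168 and 311 were among the calls above. This alternative was chosen after the trend was seen. Of the called genes named in the text, *MED14*, *HSP70*, *FSD2*, *COPT2*, *EXPA4*, *FAR1*, *EPFL9*, *PAP1*, *IPMI1*, and *RPS23B* were not called under it. Neither were *MT2A* and *ROC3*, which are named at the end. What part gene length, or anything that goes with it, has in single calls was not tested.

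Flavonoids are made from phenylalanine by chalcone synthase and the enzymes that follow it, and the late steps, which *DFR*, *LDOX*, and sugar and acyl transferases carry out, give the purple anthocyanins of stressed or light-exposed seedlings. MYB factors such as PAP1 switch these late genes on together. Of 19 tested genes of flavonoid and anthocyanin synthesis, 10 were called lower in *med14* and none higher, beside 2.79% of all genes, and all 19 had a negative log2 change (median −1.10, beside 0.01 for all genes). By limma, 15 were lower and none higher at an unadjusted p under 0.05, beside 23.53% and 20.2% of all tested genes. The called genes held the late steps, while chalcone synthase itself did not reach the 2-fold limit. The promoters of 4 late genes are shown because their genes changed together and share a run of letters that was noticed when the promoters were read. They are the 250 bases before the annotated gene start in the TAIR10.1 RefSeq genome, 5′ to 3′ on the strand of the gene, with CACCGGT and CACGTG (the G-box, a bHLH and bZIP site, which reads the same on both strands) in capitals. The only CACGTG among these 4 windows is the one near the end of the *DFR* promoter.
DFR (chr5:17166033-17166282, minus strand): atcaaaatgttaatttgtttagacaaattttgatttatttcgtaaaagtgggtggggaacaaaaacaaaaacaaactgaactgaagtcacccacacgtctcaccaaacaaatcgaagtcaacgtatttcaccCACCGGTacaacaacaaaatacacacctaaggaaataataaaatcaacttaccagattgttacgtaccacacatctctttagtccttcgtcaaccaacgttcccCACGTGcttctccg
LDOX (chr4:12006210-12006459, minus strand): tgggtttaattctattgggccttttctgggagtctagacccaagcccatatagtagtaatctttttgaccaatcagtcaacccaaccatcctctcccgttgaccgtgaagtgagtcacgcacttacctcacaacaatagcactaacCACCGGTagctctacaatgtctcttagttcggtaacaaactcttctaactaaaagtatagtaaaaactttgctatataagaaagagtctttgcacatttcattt
UGT75C1 (chr4:8123836-8124085, minus strand): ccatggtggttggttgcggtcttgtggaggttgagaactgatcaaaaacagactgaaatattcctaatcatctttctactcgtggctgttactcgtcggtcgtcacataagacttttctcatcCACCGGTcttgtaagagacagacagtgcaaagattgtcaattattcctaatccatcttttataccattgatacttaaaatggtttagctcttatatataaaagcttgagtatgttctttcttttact
5MAT (chr3:11400333-11400582, minus strand): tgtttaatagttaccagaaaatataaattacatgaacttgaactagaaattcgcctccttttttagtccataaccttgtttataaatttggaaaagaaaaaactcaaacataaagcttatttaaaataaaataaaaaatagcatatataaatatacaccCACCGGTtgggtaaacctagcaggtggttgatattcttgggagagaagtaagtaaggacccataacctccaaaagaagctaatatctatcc
CACCGGT was found, on either strand, in 4 of the 10 called promoters, in none of the 9 promoters of tested members that were not called, and in 0.751% of all 27431 nuclear promoters of that length. CACGTG was in 4 of the 10 called promoters (*CHIL*, *F3H*, *DFR*, and *UF3GT*), in 2 of the 9 others, and in 6.48% of all. CACCGGT was picked from these called promoters, so its counts describe them and are no test. A match is only a match of letters.

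*DFR* (AT5G42800, TAIR10 chromosome 5, 17164093 to 17166032), which encodes dihydroflavonol reductase, the first enzyme of the late branch, had 3.00, 5.95, 2.03, and 3.52 FPKM in *med14*, against 26.1, 54.5, 56.8, and 62.5 in *pif4-2*. All *med14* values lay below all *pif4-2* values, and *pif4-2* replicate 1 was the lowest of its group (log2 change −3.72, standard error 0.38, adjusted p = 3.26e-04). *DFR* was not called without med14 replicate 1 or 4 or pif4-2 replicate 2 or 3 (log2 change −4.00 to −3.49, adjusted p up to 0.00198 with 1 library left out). *LDOX* (AT4G22880, TAIR10 chromosome 4, 12004726 to 12006209), which acts on the product of *DFR*, stood at 2.26, 2.89, 2.29, and 2.83 FPKM in *med14*, against 17.5, 37.5, 38.4, and 37.9 in *pif4-2* (log2 change −3.49, standard error 0.23, adjusted p = 1.65e-06). The anthocyanin glucosyltransferase gene *UGT75C1* (AT4G14090, TAIR10 chromosome 4, 8122188 to 8123835) had 1.40, 2.61, 1.25, and 1.44 FPKM in *med14*, against 15.1, 28.3, 26.9, and 26.53 in *pif4-2* (log2 change −3.67, standard error 0.23, adjusted p = 1.06e-06). *GSTF12*, a glutathione transferase gene needed to bring anthocyanins into the vacuole, stood at 3.42, 4.27, 2.38, and 3.43 FPKM in *med14*, against 30.1, 40.7, 38.0, and 41.5 in *pif4-2* (log2 change −3.40, standard error 0.15, adjusted p = 6.04e-09). In these 4 genes the *med14* replicates were at most 5.95 FPKM and no *pif4-2* replicate was under 15.1 FPKM. The Col-0 means were 23.9, 18.0, 13.5, and 18.0 FPKM, between both mutants.

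*UF3GT*, which adds a further sugar, had a log2 change of −2.98 ± 0.30, and *5MAT*, which adds a malonyl group, averaged 0.828 FPKM in *med14* and 6.34 in *pif4-2* (log2 change −2.63). *TT7*, the flavonoid 3′-hydroxylase gene, averaged 1.31 FPKM in *med14* and 7.63 in *pif4-2*, and the regulator *PAP1* averaged 1.36 and 4.08 (log2 changes −2.29 and −1.45). Of the early steps, *F3H* and *CHIL* were called lower (log2 changes −1.44 and −1.10). *CHS*, *CHI*, and *FLS1*, the last of which leads to flavonols, had log2 changes of −0.78, −0.89, and −0.71. Their adjusted p values were 0.0152, 3.23e-05, and 6.90e-05. The regulators *MYB111* and *EGL3* had log2 changes of −0.08 and −0.32.

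Phenylpropanoid genes, which feed both flavonoids and the sinapate esters and lignin of the seedling, changed singly. *FAH1* (AT4G36220, TAIR10 chromosome 4, 17137313 to 17139777), the ferulate 5-hydroxylase gene of sinapate and syringyl lignin synthesis, had 12.9, 14.7, 9.64, and 9.75 FPKM in *med14*, against 91.97, 84.5, 90.08, and 93.9 in *pif4-2* and 66.8 in Col-0 (log2 change −2.93, standard error 0.13, adjusted p = 4.97e-09). *PAL1*, whose enzyme opens the pathway, stood at 58.7, 70.3, 61.7, and 75.2 FPKM in *med14*, against 154, 173, 176, and 183 in *pif4-2* (log2 change −1.37, standard error 0.11, adjusted p = 8.22e-07). The laccase gene *LAC4*, which acts in lignin polymerization in xylem walls, went the other way, with 12.03, 12.1, 13.95, and 14.2 FPKM in *med14*, against 5.22, 6.43, 4.90, and 3.34 in *pif4-2* (log2 change 1.38, standard error 0.16, adjusted p = 2.04e-05). These 3 were the only calls among 24 tested members (1 higher and 2 lower, beside 0.994% and 2.79% of all tested genes). The median was −0.13, which turned positive without rescaling.

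Cold-regulated (COR) genes encode dehydrins and other small hydrophilic proteins that protect membranes, and CBF factors bind the CCGAC core of their promoters in the cold. Of 15 tested members of the cold list, 5 were called lower in *med14* and none higher, beside 2.79% and 0.994% of all tested genes. The median log2 change was −0.49, beside 0.01 for all genes. *KIN1* (AT5G15960, TAIR10 chromosome 5, 5209717 to 5210826) had 0, 0.229, 0.146, and 0 FPKM in *med14*, against 6.14, 4.03, 5.45, and 6.94 in *pif4-2* and 2.099 in Col-0. It was listed at 0 in *med14* replicates 1 and 4. Its fall was the strongest among the genes named here (log2 change −4.13, standard error 0.24, adjusted p = 8.38e-08). *COR6.6* (AT5G15970, TAIR10 chromosome 5, 5211719 to 5212743), its tandem copy, stood at 4.14, 3.38, 2.59, and 3.35 FPKM in *med14*, against 86.2, 43.8, 47.0, and 53.6 in *pif4-2* (log2 change −3.97, standard error 0.20, adjusted p = 1.32e-07). Reads of such near-identical copies can be split between them, so that the share of each is uncertain. In both genes *med14* lay below Col-0, and *pif4-2* lay above it.

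*RD29A*, a gene induced by both cold and drought, had 1.67, 2.31, 1.09, and 1.17 FPKM in *med14*, against 6.71, 7.42, 5.94, and 5.2003 in *pif4-2* (log2 change −1.90, standard error 0.19, adjusted p = 8.07e-06). The dehydrin genes *LTI30* and *ERD10* had log2 changes of −1.37 ± 0.14 and −1.06 ± 0.12, and for these and *RD29A* the Col-0 means (7.99, 14.4, and 39.4 FPKM) lay above *pif4-2*. *ERD10* was not called without med14 replicate 4 or pif4-2 replicate 2 (log2 change −1.14 to −0.99, adjusted p up to 1.27e-04 with 1 library left out). The dehydrin gene *COR47* averaged 55.4 FPKM in *med14* and 52.8 in *pif4-2*, and *CBF1*, *CBF2*, and *CBF3* were too low to be tested. The promoters of the tandem pair are shown with their longest shared run, of 37 bases, in capitals, and those of *RD29A* and *LTI30* with CCGAC and its complement GTCGG in capitals.
KIN1 (chr5:5209467-5209716, plus strand): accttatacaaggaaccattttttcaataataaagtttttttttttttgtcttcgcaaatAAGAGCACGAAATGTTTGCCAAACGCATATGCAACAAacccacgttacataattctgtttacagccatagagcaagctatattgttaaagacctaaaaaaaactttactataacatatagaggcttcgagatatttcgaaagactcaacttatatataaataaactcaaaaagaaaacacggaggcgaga
COR6.6 (chr5:5211469-5211718, plus strand): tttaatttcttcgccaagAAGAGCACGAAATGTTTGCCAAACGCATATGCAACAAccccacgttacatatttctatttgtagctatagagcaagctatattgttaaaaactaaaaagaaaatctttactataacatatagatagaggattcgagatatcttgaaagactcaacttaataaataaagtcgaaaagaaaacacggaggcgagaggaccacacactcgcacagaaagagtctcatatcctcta
RD29A (chr5:21240467-21240716, plus strand): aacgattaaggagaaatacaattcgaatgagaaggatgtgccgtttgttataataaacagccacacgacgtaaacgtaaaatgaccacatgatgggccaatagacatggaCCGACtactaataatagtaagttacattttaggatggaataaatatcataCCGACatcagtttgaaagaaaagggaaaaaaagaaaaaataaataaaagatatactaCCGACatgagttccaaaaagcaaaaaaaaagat
LTI30 (chr3:18940393-18940642, plus strand): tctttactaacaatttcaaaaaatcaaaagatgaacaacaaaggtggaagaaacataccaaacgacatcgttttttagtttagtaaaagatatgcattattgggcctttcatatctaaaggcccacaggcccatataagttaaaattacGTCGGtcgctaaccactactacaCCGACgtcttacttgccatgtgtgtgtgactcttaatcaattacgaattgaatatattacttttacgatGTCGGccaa
CCGAC, searched on both strands, was in 2 of the 5 called promoters (*RD29A* and *LTI30*, with 3 matches each), in 4 of the 10 promoters of members that were not called, and in 12% of all nuclear promoters. These windows of *KIN1* and *COR6.6* held none.

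**Figure D3:**
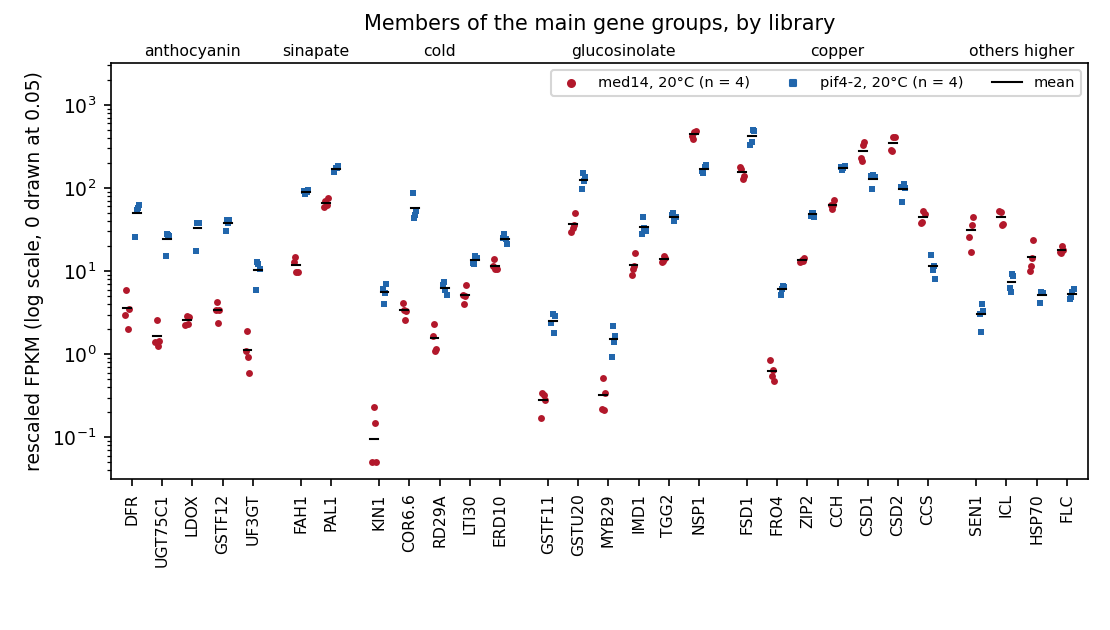
Rescaled FPKM (log axis) of members of the main gene groups, with 1 point per library (circles, med14; squares, pif4-2; n = 4 each) and a line at each mean. Every gene shown was called, and as in all called genes its med14 and pif4-2 points do not overlap.

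Glucosinolates are the sulfur-rich defence compounds of the Brassicaceae. The aliphatic ones start from methionine, whose side chain is lengthened by enzymes such as MAM1 and BCAT4 before the CYP79F and CYP83A1 enzymes build the core, and MYB28 and MYB29 switch the pathway on. Of 26 tested aliphatic synthesis genes, 6 were called lower in *med14* and none higher, beside 2.79% and 0.994% of all tested genes. A negative log2 change was found for 25 of the 26, and the median was −0.75. At an adjusted p under 0.05 and any fold, 19 of the 26 were lower and none higher (limma), beside 18.9% and 14.6% of all tested genes. Of these 26 genes, 25 were lower in both mutants than in Col-0. *MAM1* averaged 2.41 FPKM in *med14*, 8.66 in *pif4-2*, and 34.5 in Col-0, and *CYP79F1* averaged 0.321, 2.21, and 12.04. Neither passed the threshold between the mutants (adjusted p = 0.0148 and 0.00386).

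*GSTF11*, a glutathione transferase gene of the core pathway, had 0.172, 0.339, 0.324, and 0.283 FPKM in *med14*, against 2.35, 3.08, 1.79, and 2.92 in *pif4-2* (log2 change −2.38, standard error 0.20, adjusted p = 1.75e-06). *GSTU20*, of the same enzyme class, stood at 29.4, 33.3, 36.3, and 49.9 FPKM in *med14*, against 98.2, 150.3, 123, and 135 in *pif4-2* (log2 change −1.77, standard error 0.16, adjusted p = 4.15e-06). *MYB29* had 0.217, 0.512, 0.210, and 0.343 FPKM in *med14*, against 0.922, 2.16, 1.40, and 1.66 in *pif4-2* (log2 change −1.63, standard error 0.25, adjusted p = 2.29e-04), and was not called without med14 replicate 1 or 3 or pif4-2 replicate 3 or 4 (log2 change −1.83 to −1.47, adjusted p up to 0.00144 with 1 library left out). *MYB28* was not among the called genes, and whether *MYB29* has a part in the changes of the enzyme genes was not tested. *IMD1*, the dehydrogenase of side-chain elongation, had 8.92, 10.6, 11.7, and 16.6 FPKM in *med14*, against 28.3, 44.8, 32.8, and 30.01 in *pif4-2* (log2 change −1.501, standard error 0.18, adjusted p = 6.21e-05). The other 2 calls were *FMO GS-OX2* and *IPMI1*, at log2 changes of −1.46 and −1.07. Of 15 tested indole glucosinolate genes, which start from tryptophan, none was called by limma, and 8 were at an unadjusted p under 0.05, beside 43.7% of all tested genes (median −0.24, which turned positive without rescaling).

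Among 17 tested genes of glucosinolate breakdown and ER bodies, 5 were called lower and 1 higher, beside 2.79% and 0.994% of all tested genes. The myrosinase gene *TGG2* had 12.8, 13.2, 15.3, and 14.2 FPKM in *med14*, against 47.3, 50.0, 40.1, and 44.2 in *pif4-2* (log2 change −1.69, standard error 0.10, adjusted p = 9.37e-08), while its partner *TGG1* averaged 455 and 457 (log2 change −0.01). *BGLU18*, an ER body glucosidase gene, had a log2 change of −1.52 ± 0.16. The specifier genes, which decide what a broken glucosinolate turns into, changed in both directions. *NSP1*, which favours nitriles, had 421, 392, 469, and 489 FPKM in *med14*, against 162, 153, 178, and 187 in *pif4-2* and 148 in Col-0 (log2 change 1.38, standard error 0.11, adjusted p = 1.00e-06). *NSP3*, its tandem neighbour, went down to 4.13, 3.96, 2.39, and 2.76 FPKM in *med14*, against 6.65, 7.57, 7.23, and 9.02 in *pif4-2* (log2 change −1.17, standard error 0.16, adjusted p = 1.28e-04). *ESP*, which also favours nitriles, had a log2 change of −1.16, and *ESM1*, which favours isothiocyanates, had one of −1.15. Reads of the similar *NSP* copies can be split between them, which leaves the value of each uncertain.

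Ribosomal protein genes stood out among the abundant genes that were called lower, and were collected after this was seen, by their annotated product. They form small families of close copies that serve the ribosomes of the cytosol, plastids, and mitochondria, and reads of close copies can be split between them. Of 338 tested genes, 82 (24.3%) were called lower in *med14* and none higher by limma, beside 2.79% of all genes, and 276 were lower and 4 higher at an unadjusted p under 0.05 (23.53% and 20.2% of all tested genes). Leaving out 1 library gave 70 to 95 calls. A negative log2 change was found for 314 of the 338, with a median of −0.65, beside 0.01 for all other tested genes. The summed FPKM over the family was 43828, 42754, 44161, and 51481 in *med14*, against 87870, 75133, 89566, and 92690 in *pif4-2*. In Col-0 it ran from 48739 to 55974. All *med14* libraries thus lay below all *pif4-2* libraries, and Col-0 was nearer to *med14*.

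*RPS14B* (AT3G11510, TAIR10 chromosome 3, 3623448 to 3624961), of the small subunit, had 352, 352, 341, and 416 FPKM in *med14*, against 1214, 899, 1107, and 1108 in *pif4-2* and 495 in Col-0 (log2 change −1.56, standard error 0.12, adjusted p = 6.67e-07). *RPS23B*, also of the small subunit, stood at 494, 483, 462, and 567 FPKM in *med14*, against 1366, 1096, 1328, and 1378 in *pif4-2* (log2 change −1.36, standard error 0.11, adjusted p = 1.45e-06). *RPL13AB*, of the large subunit, had 297, 290.0, 283, and 349.9 FPKM in *med14*, against 959, 775, 984, and 984 in *pif4-2* (log2 change −1.60, standard error 0.11, adjusted p = 5.04e-07). As in every called gene, the *med14* and *pif4-2* replicates of these 3 genes did not overlap. The fall went with gene length here too, with median log2 changes of −0.95 for 55 genes with under 750 bases of exon, −0.72 for 115 from 750 to under 1000, −0.55 for 132 from 1000 to under 1500, and −0.35 for 31 from 1500 to under 2000. In each of these classes the median of the other genes was nearer to 0. With the length trend removed, 33 were called lower and 1 higher, and the median was −0.40. Without rescaling 41 were called lower and 2 higher, and the median was −0.39. Which part of the fall goes with length alone was not tested.

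Wall and growth genes gave further calls. The XTH enzymes cut and rejoin the xyloglucan chains of the wall. Of 23 tested XTH genes, 6 were called lower and 1 higher (median −0.47), beside 2.79% and 0.994% of all tested genes. *XTH31* (AT3G44990, TAIR10 chromosome 3, 16446935 to 16448844) had 20.9, 23.8, 18.6, and 19.3 FPKM in *med14*, against 143, 161, 154, and 157 in *pif4-2* and 134 in Col-0 (log2 change −2.89, standard error 0.10, adjusted p = 6.96e-10). *XTH20* (AT5G48070, TAIR10 chromosome 5, 19481897 to 19483527) stood at 1.45, 1.44, 1.34, and 1.27 FPKM in *med14*, against 12.5, 11.7, 14.4, and 13.5 in *pif4-2* and 4.89 in Col-0 (log2 change −3.03, standard error 0.11, adjusted p = 1.04e-09). *XTH5*, *XTH9*, *XTH21*, and *XTH32* had log2 changes of −1.12, −1.03, −1.19, and −1.07. *XTH22*, also known as the touch-induced gene *TCH4*, was the exception, with 9.71, 7.88, 13.8, and 15.5 FPKM in *med14*, against 2.64, 2.49, 2.95, and 3.47 in *pif4-2* and 1.14 in Col-0 (log2 change 1.89, standard error 0.19, adjusted p = 7.85e-06). *XTH21* was not called without med14 replicate 1 or 3 or pif4-2 replicate 3 (log2 change −1.29 to −1.05, adjusted p up to 0.00129 with 1 library left out). The XTH genes as a group thus held changes of both signs.

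Of 19 tested expansins, which loosen walls, *EXPB3* and *EXPA4* were called lower (log2 changes −1.13 ± 0.09 and −1.02 ± 0.12), beside 2.79% of all tested genes. *EXPA4* was not called without med14 replicate 1 or 3 or pif4-2 replicate 4 (log2 change −1.08 to −0.91, adjusted p up to 1.87e-04 with 1 library left out). The glycine-rich protein gene *GRP9* (AT2G05440, TAIR10 chromosome 2, 1993038 to 1994177) had 2.33, 2.91, 3.49, and 3.29 FPKM in *med14*, against 40.2, 44.5, 39.6, and 36.5 in *pif4-2* and 49.6 in Col-0 (log2 change −3.65, standard error 0.12, adjusted p = 6.96e-10). *PRE3*, a growth-promoting bHLH gene without DNA binding of its own, stood at 3.09, 2.88, 3.05, and 3.16 FPKM in *med14*, against 16.3, 11.2, 13.6, and 13.4 in *pif4-2* and 5.12 in Col-0 (log2 change −2.06, standard error 0.12, adjusted p = 7.90e-08). The brassinosteroid-induced bHLH gene *BEE3* went the other way, with 6.25, 5.74, 5.00, and 6.34 FPKM in *med14*, against 3.14, 1.88, 2.33, and 2.37 in *pif4-2* (log2 change 1.197, standard error 0.15, adjusted p = 4.16e-05). *PRE3* and *BEE3* were the only calls among 24 tested genes of brassinosteroids and growth bHLH factors. That is 4.17% called in each direction, beside 2.79% of all tested genes called lower and 0.994% called higher.

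*GA3OX1*, which makes active gibberellin, had 3.204, 2.66, 2.91, and 2.2997 FPKM in *med14*, against 4.85, 9.40, 8.63, and 6.29 in *pif4-2* (log2 change −1.29, standard error 0.18, adjusted p = 1.31e-04), the single call among 17 gibberellin genes. *EPFL9*, the stomagen peptide gene that promotes stomata, averaged 8.51 ± 1.31 FPKM in *med14* and 19.6 ± 1.67 in *pif4-2* (SD, n = 4 each; log2 change −1.19), the single call among 7 stomatal lineage genes. These single calls are 5.88% of the gibberellin and 14.3% of the stomatal lineage genes, beside 2.79% of all tested genes called lower. *SPCH*, *MUTE*, and *FAMA*, which drive that lineage, had log2 changes of 0.08, −0.10, and −0.18. Of 38 tested SAUR genes of auxin-linked growth, *SAUR19* was called higher (log2 change 1.62, standard error 0.26, adjusted p = 3.06e-04) and *SAUR36* lower (log2 change −1.24, standard error 0.17, adjusted p = 8.76e-05). That is 2.63% of the SAUR list in each direction, beside 0.994% of all tested genes called higher and 2.79% called lower. *SAUR19* belongs to a cluster of close copies, so its reads may be shared with them. By limma no gene was called among 21 Aux/IAA genes, 7 auxin synthesis genes, and 6 GH3 genes, of which 12, 3, and 4 were at an unadjusted p under 0.05, beside 43.7% of all tested genes.

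Copper genes were collected after 2 superoxide dismutase genes were seen to change in opposite directions. Plants short of copper use the factor SPL7, which binds GTAC cores, to switch on *FSD1*, the iron superoxide dismutase gene, and copper uptake genes, and to switch off copper proteins such as *CSD1*, *CSD2*, and *CCS* through microRNAs. Of 18 tested members, 6 were called lower in *med14* and 3 higher, beside 2.79% and 0.994% of all tested genes. *FSD1* (AT4G25100, TAIR10 chromosome 4, 12884300 to 12887011) had 180.4, 169, 128, and 139 FPKM in *med14*, against 333, 356, 505, and 487 in *pif4-2* and 173 in Col-0 (log2 change −1.44, standard error 0.15, adjusted p = 1.22e-05). *CSD2* (AT2G28190, TAIR10 chromosome 2, 12014412 to 12016569), the plastid copper/zinc enzyme gene, went up to 284, 276, 412, and 414 FPKM in *med14*, against 102, 68.8, 113, and 101 in *pif4-2* and 156 in Col-0 (log2 change 1.84, standard error 0.17, adjusted p = 6.13e-06). For *FSD1* the *med14* mean lay within the Col-0 range and the *pif4-2* mean above it, while for *CSD2* the *med14* mean lay above the Col-0 range and the *pif4-2* mean below it. *CCS*, the chaperone gene that loads copper into *CSD1* and *CSD2* proteins, stood at 37.7, 39.5, 53.4, and 48.4 FPKM in *med14*, against 15.8, 10.4, 11.4, and 8.13 in *pif4-2* (log2 change 1.97, standard error 0.18, adjusted p = 4.99e-06). *CSD1*, the cytosolic enzyme gene, had 229, 209, 331, and 359 FPKM in *med14*, against 139, 97.01, 142, and 136 in *pif4-2* (log2 change 1.11, standard error 0.18, adjusted p = 4.43e-04), and was not called without med14 replicate 3 or 4 or pif4-2 replicate 1, 2, 3 or 4 (log2 change 0.98 to 1.24, adjusted p up to 0.00190 with 1 library left out).

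The other copper calls were lower. The metal reductase gene *FRO4* had 0.848, 0.542, 0.648, and 0.480 FPKM in *med14*, against 5.12, 6.09, 6.66, and 6.49 in *pif4-2* (log2 change −2.86, standard error 0.16, adjusted p = 5.89e-08), and its close copy *FRO5* had a log2 change of −2.70 ± 0.34. The transporter gene *ZIP2* stood at 13.01, 13.6, 13.1, and 14.3 FPKM in *med14*, against 46.6, 50.2, 50.2, and 45.1 in *pif4-2* (log2 change −1.81, standard error 0.09, adjusted p = 1.23e-08). The copper chaperone gene *CCH* had 62.3, 56.4, 62.9, and 71.8 FPKM in *med14*, against 178, 165, 172, and 183 in *pif4-2* (log2 change −1.46, standard error 0.10, adjusted p = 3.08e-07), and the copper uptake gene *COPT2* had a log2 change of −1.22 ± 0.18. *COPT2* was not called without med14 replicate 1, 2 or 3 or pif4-2 replicate 2, 3 or 4 (log2 change −1.41 to −1.11, adjusted p up to 0.00186 with 1 library left out). *SPL7* itself averaged 5.70 FPKM in *med14* and 5.78 in *pif4-2* (log2 change −0.02). *COPT1* and *COPT6* had log2 changes of 0.48 and 0.23 and were not called. GTAC was in 5 of the 9 called promoters, in 2 of the 9 others, and in 34.3% of all. The *ZIP2* promoter is shown because it holds 3 matches, in capitals.
ZIP2 (chr5:23992909-23993158, minus strand): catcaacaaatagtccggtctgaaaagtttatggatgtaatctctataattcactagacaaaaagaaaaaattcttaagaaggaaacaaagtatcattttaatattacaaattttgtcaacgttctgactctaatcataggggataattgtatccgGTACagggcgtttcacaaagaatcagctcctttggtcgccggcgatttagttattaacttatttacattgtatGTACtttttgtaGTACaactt

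Jasmonate genes gave 3 calls among 20 tested, all lower in *med14*, beside 2.79% of all tested genes called lower. *AOS*, an enzyme gene of jasmonate synthesis, had 35.8, 38.3, 35.8, and 41.4 FPKM in *med14*, against 133, 85.9, 77.9, and 87.8 in *pif4-2* (log2 change −1.31, standard error 0.14, adjusted p = 1.42e-05). *ORA59*, a factor of the ethylene and jasmonate response, stood at 0.493, 0.233, 0.223, and 0.243 FPKM in *med14*, against 2.66, 2.08, 1.62, and 2.79 in *pif4-2* (log2 change −2.21, standard error 0.22, adjusted p = 5.96e-06). *VSP2*, a storage protein gene that jasmonate induces, had a log2 change of −1.24 ± 0.19 and was not called without pif4-2 replicate 3 or 4 (log2 change −1.302 to −1.04, adjusted p up to 0.00161 with 1 library left out). The *JAZ* repressor genes that could be tested had log2 changes from −0.36 (*JAZ6*) to 0.24 (*JAZ1*), none of them called. *DR4* (AT1G73330, TAIR10 chromosome 1, 27568714 to 27569823), which encodes a protein of the protease inhibitor family, had 1.16, 1.37, 1.97, and 1.55 FPKM in *med14*, against 14.9, 17.9, 13.2, and 15.98 in *pif4-2* and 12.04 in Col-0 (log2 change −3.17, standard error 0.15, adjusted p = 7.93e-09).

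Among 17 genes of the plastid transcription machinery, to which HMR also belongs, *FLN1* and *FSD2* were called lower (log2 changes −1.07 ± 0.12 and −1.007 ± 0.10), both near the 2-fold limit. They make up 11.8% of that list, beside 2.79% of all tested genes called lower. *FLN1* was not called without med14 replicate 3 or pif4-2 replicate 4 (log2 change −1.16 to −0.96, adjusted p up to 1.80e-04 with 1 library left out). *FSD2* was not called without med14 replicate 4 or pif4-2 replicate 3 or 4 (log2 change −1.05 to −0.92, adjusted p up to 8.73e-05 with 1 library left out). At an adjusted p under 0.05 and any fold, 9 of these 17 were lower and none higher, beside the 18.9% given above. None of 82 tested plastid genes and none of 42 tested mitochondrial genes was called by limma (median log2 changes −0.03 and 0.44), and 7 of each were at an unadjusted p under 0.05, beside 43.7% of all tested genes. Among 25 iron genes, *COPT2* and the zinc transporter gene *MTPA2* were called lower (*MTPA2*, log2 change −1.09, standard error 0.14, adjusted p = 4.94e-05), and *MTPA2* was not called without med14 replicate 2 (log2 change −1.18 to −0.98, adjusted p up to 4.41e-04 with 1 library left out). The iron-deficiency bHLH genes *BHLH38*, *BHLH39*, and *BHLH100* had log2 changes of 2.33, 1.11, and 2.73, with adjusted p values of 0.0247, 0.181, and 0.0204, so that none was called at 20°C, while all 3 were called higher at 27°C. The phosphate list of 15 gave *PHO1;H1*, a phosphate exporter gene, at 2.22, 2.56, 1.46, and 1.64 FPKM in *med14*, against 4.63, 4.68, 4.198, and 5.10 in *pif4-2* (log2 change −1.17). It was the only call of that list (6.67%, beside 2.79% of all tested genes called lower).

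The genes higher in *med14* held fewer of the listed pathways. Leaves short of sugar switch on *SEN1* (*DIN1*), *ASN1* (*DIN6*), *DIN10*, and enzymes that break down branched amino acids. This carbon starvation list of 16 was put together after the values were seen. Of its members, 4 were called higher and none lower, beside 0.994% and 2.79% of all tested genes (median 0.74, beside 0.01 for all genes). *SEN1* (AT4G35770, TAIR10 chromosome 4, 16944878 to 16946266) had 25.5, 16.8, 36.1, and 45.2 FPKM in *med14*, against 3.08, 1.86, 4.06, and 3.299 in *pif4-2* and 1.81 in Col-0 (log2 change 3.18, standard error 0.33, adjusted p = 2.46e-04). *SEN1* was not called without med14 replicate 1 or pif4-2 replicate 1 (log2 change 2.98 to 3.44, adjusted p up to 0.00186 with 1 library left out). The *med14* replicates of *SEN1* spread widely, yet the lowest stood far above the highest *pif4-2* replicate. *DIN10*, a raffinose synthase-like gene, had 94.8, 79.1, 92.8, and 84.9 FPKM in *med14*, against 38.0, 32.5, 47.5, and 42.4 in *pif4-2* (log2 change 1.14, standard error 0.12, adjusted p = 1.01e-05). *MCCA*, of leucine breakdown, stood at 11.96, 10.3, 12.004, and 8.87 FPKM in *med14*, against 4.37, 5.25, 5.10, and 4.17 in *pif4-2* (log2 change 1.14, standard error 0.12, adjusted p = 1.34e-05). The threonine aldolase gene *THA1* had 3.96, 2.63, 4.68, and 6.55 FPKM in *med14*, against 0.905, 0.297, 0.998, and 0.928 in *pif4-2* (log2 change 2.19, standard error 0.30, adjusted p = 1.55e-04). As in all 693 called genes, the groups did not overlap in these 4. *ASN1*, the asparagine synthetase gene, had 24.4, 18.9, 37.6, and 39.2 FPKM in *med14*, against 2.22, 1.76, 5.36, and 5.13 in *pif4-2*, without overlap, but missed the threshold (log2 change 3.05, standard error 0.42, adjusted p = 0.00153). The glucosidase gene *DIN2* and the F-box gene *SKIP20* had log2 changes of −0.24 and −0.06, and the other 14 of the 16 changes were positive. At an adjusted p under 0.05 and any fold, 12 members were higher and none lower, beside 14.6% and 18.9% of all tested genes. Without overlap between the groups, 13 were higher, beside 31.9% of all tested genes without overlap in either direction.

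*ICL* (AT3G21720, TAIR10 chromosome 3, 7652487 to 7656053), the isocitrate lyase gene of the glyoxylate cycle that turns seed oil into sugar, had 52.9, 51.1, 36.1, and 36.8 FPKM in *med14*, against 6.18, 5.59, 9.15, and 8.72 in *pif4-2* and 6.78 in Col-0 (log2 change 2.55, standard error 0.17, adjusted p = 6.14e-07). *MLS*, the other enzyme of that cycle, averaged 4.99 FPKM in *med14* and 1.33 in *pif4-2* (adjusted p = 0.00162). Seed storage transcripts were near 0 in most libraries and 13 of 19 could not be tested. The summed FPKM of the list ran from 95.7 to 161 in *med14* and from 45.6 to 60.1 in *pif4-2*, most of it *PCK1* and *ICL*. The storage protein genes *CRA1* and *CRC* averaged 6.13 and 3.02 FPKM in *med14* and 0.142 and 0.0216 in *pif4-2*. Their part in the *ICL* difference was not tested.

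Heat shock genes encode chaperones and their factors. Of 13 tested, 3 were called higher in *med14* and none lower, beside 0.994% and 2.79% of all tested genes (median 0.69, beside 0.01 for all genes). *HSP70* had 9.95, 11.6, 14.2, and 23.7 FPKM in *med14*, against 4.16, 5.59, 5.41, and 5.43 in *pif4-2* and 6.95 in Col-0 (log2 change 1.42, standard error 0.22, adjusted p = 6.67e-04). *HSP70* was not called without med14 replicate 2 or 3 or pif4-2 replicate 1, 2, 3 or 4 (log2 change 1.19 to 1.61, adjusted p up to 0.00378 with 1 library left out). *HSFA7A*, a heat shock factor gene, stood at 4.72, 3.66, 5.75, and 4.90 FPKM in *med14*, against 1.46, 2.28, 1.95, and 1.88 in *pif4-2* (log2 change 1.22, standard error 0.16, adjusted p = 6.90e-05). The small chaperone gene *HSP17.6A* had 0.547, 0.718, 0.550, and 2.097 FPKM in *med14* and was listed at 0 in all 4 *pif4-2* libraries (adjusted p = 2.20e-04). With a pseudocount of 1 in place of 0.25, neither *HSFA7A* nor *HSP17.6A* was called. *HSP101* and *HSP90.1* had log2 changes of 0.54 and 1.44 and were not called. *MBF1C* and *HSFB2A* stood at 0.69 and −0.56.

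Cuticle and suberin genes make the waxes and polyesters of the surface. Among 23 tested, 3 were called higher and 1 lower (median 0.28), beside 0.994% and 2.79% of all tested genes. *MYB96*, a factor that raises wax synthesis under drought, had 4.01, 3.93, 4.95, and 4.21 FPKM in *med14*, against 1.78, 1.56, 1.496, and 1.65 in *pif4-2* (log2 change 1.27, standard error 0.13, adjusted p = 8.40e-06). *KCS12*, a fatty acid elongase gene, stood at 2.29, 2.27, 3.604, and 2.69 FPKM in *med14*, against 0.488, 0.380, 0.647, and 1.24 in *pif4-2* (log2 change 1.72, standard error 0.25, adjusted p = 1.38e-04). The reductase genes *FAR1* and *CER4* of fatty alcohol synthesis went in opposite directions (log2 changes 1.007 ± 0.18 and −1.82 ± 0.26). *FAR1* was not called without med14 replicate 1, 3 or 4 or pif4-2 replicate 1, 2 or 3 (log2 change 0.93 to 1.13, adjusted p up to 0.00353 with 1 library left out). *ADS4*, a fatty acid desaturase-like gene, had 8.70, 9.05, 10.9, and 10.7 FPKM in *med14*, against 0.725, 0.879, 0.743, and 2.33 in *pif4-2* and 3.34 in Col-0 (log2 change 2.95, standard error 0.27, adjusted p = 1.04e-05).

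*FLC* (AT5G10140, TAIR10 chromosome 5, 3173382 to 3179448), the MADS-box repressor of flowering, had 17.1, 16.6, 19.8, and 17.9 FPKM in *med14*, against 4.65, 4.81, 5.53, and 6.13 in *pif4-2* and 6.37 ± 0.636 (SD, n = 4) in Col-0 (log2 change 1.71, standard error 0.11, adjusted p = 2.26e-07). Its family was read after that value was seen. *MAF1* and *MAF4* had log2 changes of 0.62 and 0.98, and *AGL31* and *MAF3* had 0.36 and 0.37, none of them called. *FLC* thus stood apart from its relatives in the size of its change.

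Defence genes gave single calls. *CBP60G*, a factor that raises salicylic acid synthesis, had 2.46, 2.74, 5.28, and 4.93 FPKM in *med14*, against 0.173, 0.877, 0.871, and 0.574 in *pif4-2* (log2 change 2.26, standard error 0.33, adjusted p = 3.24e-04). It was the only call among 13 tested genes of salicylic acid and defence (7.69%, beside 0.994% of all tested genes called higher). *CBP60G* was not called without med14 replicate 4 or pif4-2 replicate 4 (log2 change 1.96 to 2.46, adjusted p up to 0.00198 with 1 library left out). *YLS9* (*NHL10*), a gene induced by pathogens and senescence, had 0.818, 1.27, 1.39, and 1.58 FPKM in *med14*, against 0, 0.223, 0, and 0.0742 in *pif4-2*. Both genes are low, so that few fragments stand behind these values. The transporter genes *DTX49* and *DTX9*, of the MATE family, had log2 changes of 2.26 ± 0.21 and 2.17 ± 0.15.

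Other large rises were in single genes. *CP1* (AT4G36880), a papain-like cysteine protease gene, had 9.53, 15.69, 14.7, and 11.1 FPKM in *med14*, against 1.70, 1.70, 1.48, and 2.44 in *pif4-2* and 1.39 in Col-0 (log2 change 2.64, standard error 0.17, adjusted p = 2.50e-07). The endoglucanase gene *GH9B15* averaged 6.39 ± 1.301 FPKM in *med14* and 1.296 ± 0.780 in *pif4-2* (SD, n = 4 each; log2 change 2.24, standard error 0.33, adjusted p = 6.67e-04). *CYP705A5*, a root gene of triterpene synthesis, averaged 6.33 ± 1.57 FPKM in *med14* and 1.36 ± 0.795 in *pif4-2* (log2 change 2.13, standard error 0.31, adjusted p = 4.93e-04). *GH9B15* was not called without med14 replicate 1, 2, 3 or 4 or pif4-2 replicate 1 or 2 (log2 change 2.00 to 2.47, adjusted p up to 0.00254 with 1 library left out). *CYP705A5* was not called without med14 replicate 2, 3 or 4 or pif4-2 replicate 2 or 4 (log2 change 1.85 to 2.44, adjusted p up to 0.00436 with 1 library left out). *ACO4*, of ethylene synthesis, had 113, 105, 161, and 159 FPKM in *med14*, against 79.6, 54.5, 61.4, and 65.1 in *pif4-2* (log2 change 1.03, standard error 0.15, adjusted p = 2.11e-04), and was not called without med14 replicate 3 or 4 or pif4-2 replicate 2, 3 or 4 (log2 change 0.94 to 1.15, adjusted p up to 0.00116 with 1 library left out).

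**Figure D4:**
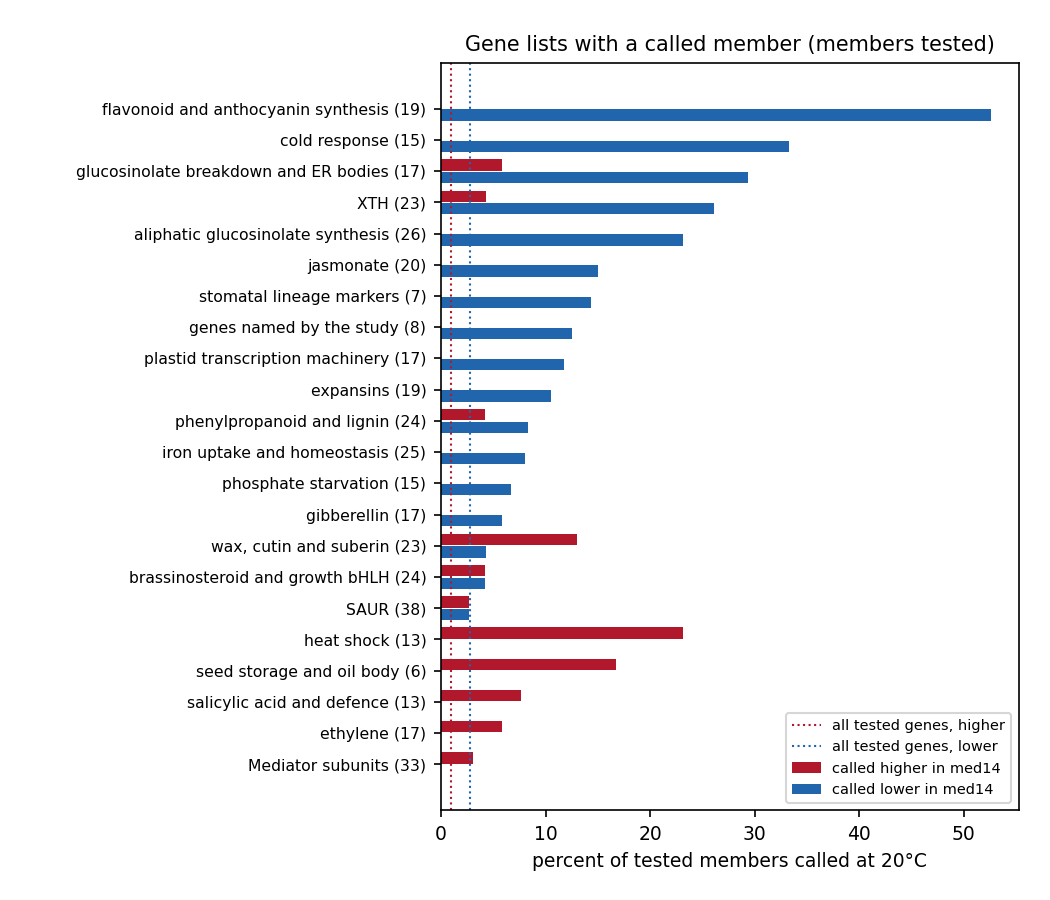
Percent of the tested members of each list that were called higher (red) or lower (blue) in med14 at 20°C, with the number tested in parentheses and dotted lines at the percent of all tested genes. Lists put together after the values were seen and lists with under 5 tested members are not drawn. Of those drawn, flavonoid, cold, glucosinolate breakdown, XTH, and aliphatic glucosinolate genes have the highest shares called lower, and heat shock genes the highest share called higher.

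No member was called by limma in several lists. Of 49 nuclear photosynthesis genes, 25 were at an unadjusted p under 0.05, as were 9 of 20 chlorophyll synthesis genes, 12 of 23 clock genes, 4 of 16 root hair genes, 6 of 19 nitrogen genes, 10 of 18 sulfur assimilation genes, 6 of 12 abscisic acid genes, 3 of 11 detoxification genes, and 6 of 8 root markers, beside 43.7% of all tested genes. At an adjusted p under 0.05 and any fold, 16 of the photosynthesis genes were lower and 2 higher, beside 18.9% and 14.6% of all tested genes. Apart from *MED14*, none of 33 tested Mediator subunit genes was called, beside 3.78% of all tested genes. At an unadjusted p under 0.05 by limma, 4 of the 33 were higher and 6 lower, beside 20.2% and 23.53% of all tested genes. The log2 changes of the Mediator genes began at −0.82 (*MED22B*), and 19 of 33 were positive.

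The same 2 genotypes at 27°C gave a second set of 8 libraries. There 19073 genes were tested, and 318 (1.67%) were called higher in *med14* and 815 (4.27%) lower. Of the 182 genes called higher at 20°C, 40 (22%) were also called higher at 27°C and 3 were called lower. Of the 511 called lower at 20°C, 192 (37.6%) were also called lower at 27°C and 2 were called higher. The sign was the same at both temperatures for 131 of 174 higher genes (75.3%) and for 490 of 504 lower genes (97.2%), beside 69.5% of all 18069 genes tested at both. *med14* replicate 1 at 27°C had only 56.0% of its fragments in listed nuclear genes, against at least 91.5% in the other 3, and without it 26 and 141 of the 20°C calls were shared.

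**Figure D5:**
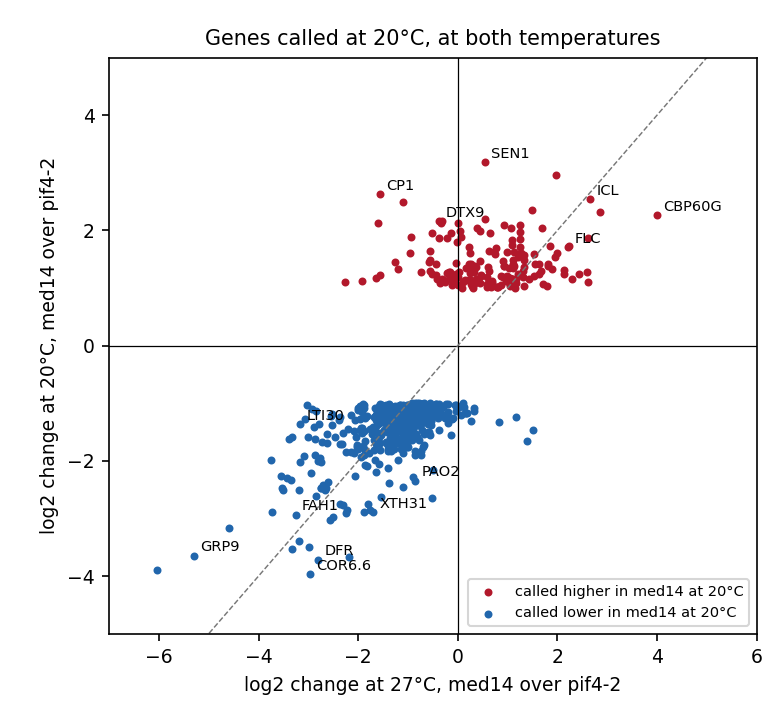
Log2 change of each gene called at 20°C (med14 over pif4-2) at 20°C on the vertical axis and at 27°C on the horizontal axis, with a dashed line where both are equal. Genes lower at 20°C were mostly below 0 at 27°C too, while genes higher at 20°C lay on both sides of 0.

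Whether a difference itself differed between the temperatures was tested in a joint fit to all 16 libraries with a term for genotype by temperature, over 19510 genes. At an adjusted p under 0.05, the difference was higher at 27°C for 1183 genes (6.06%) and lower for 1964 (10.1%). Of the 182 genes called higher at 20°C, 85 had a lower difference at 27°C and 6 a higher one. Of the 511 called lower, 68 had a higher difference and 39 a lower one. The genes were chosen by their change at 20°C, so these counts are a description.

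The protease gene *CP1* had a log2 change of 2.64 at 20°C and −1.56 at 27°C (difference −4.23, adjusted p = 2.21e-06). *XTH22* stood at 1.89 at 20°C and 0.06 at 27°C, and *MYB96* at 1.27 and 0.25 (adjusted p of the difference 6.76e-04 and 0.00275). *SEN1*, *DIN10*, *HSFA7A*, and *KCS12* likewise had a lower difference at 27°C, where none of them was called. *ICL* and *FLC* kept their rise, with log2 changes of 2.65 and 2.22 at 27°C, both called. For *CBP60G* the rise was larger at 27°C (2.26 at 20°C and 3.99 at 27°C, adjusted p of the difference 0.0125).

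Among the lower genes, *GRP9* and *DR4* differed more at 27°C, with log2 changes of −5.29 and −4.59 there (adjusted p of the difference 0.00214 and 0.00183). *XTH31* and *RD29A* differed less, at −1.70 and −0.74 (adjusted p of the difference 0.00431 and 0.00612). *LTI30* differed more, at −3.17 (adjusted p of the difference 2.15e-04), so the cold genes did not move as 1 group. Of the 10 flavonoid genes called at 20°C, 1 was also called at 27°C, although *DFR*, *LDOX*, and *GSTF12* had log2 changes of −2.81, −2.99, and −3.197 there. For none of these 3 did the difference pass the test between the temperatures (adjusted p = 0.555, 0.709, and 0.861). *PAO2* had a log2 change of −0.86 at 27°C, a smaller difference than at 20°C (adjusted p = 1.37e-04). Of the ribosomal protein genes, 25 were called lower at 27°C and none higher, 16 of them among the 82 calls at 20°C, with a median log2 change of −0.56.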

How the data were processed

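RNA-seq libraries of *med14* and *pif4-2* seedlings (4 per genotype and temperature) were analysed, with Col-0 at 20°C for levels. The authors mapped paired-end reads of a stranded mRNA kit to TAIR10 with CLC Genomics Workbench. The deposited table has the FPKM of 27655 genes, 1 column per library. All 32 columns were identified from their labels. With exon lengths from the reference and 1 total per library, 99.2 to 99.3% of the values that stand for at most 1000 fragments were whole numbers to within 0.05, which gave the depth of each library.

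FPKM values were rescaled by an unweighted trimmed mean of M values (30% of M, 5% of A trimmed) within the 8 libraries compared. Genes with at least 0.5 FPKM in at least 4 of them were tested with limma 3.58.1 (trend and robust, R 4.3.3) on log2(FPKM + 0.25), with Benjamini-Hochberg adjustment over all tested genes. Genes were called at the thresholds of the study. *PIF4*, *MED14*, and *HMR* had exact permutation tests. On simulated data for the 20°C comparison (18164 genes), made with 1 dispersion (0.00847), the fit called 0 of 50 genes changed 1.5-fold. It called 46 of 50 at 2.5-fold and 48 of 50 at 4-fold, with no false call in these data. In the measured libraries the spread differs between genes, and the share of false calls there was not tested.

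The groups compared, the gene lists, and the tests were chosen with earlier results of these data known. Lists are described by counts, without a test. Named genes were those of the study, the 12 largest rises and 12 largest falls among called genes with a symbol whose libraries did not overlap, up to 4 called members of each list, and every member of a count of at most 5, and other members were named after their values were seen. Promoters were the 250 bases before each annotated gene start, read from the TAIR10.1 RefSeq genome, whose gene coordinates match the table's for 27438 of 27445 nuclear genes. Replicate numbers were not treated as pairs. Alternatives were other scalings, filters, pseudocounts, fits, and thresholds, and each library left out in turn.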

Additional observations from a re-analysis of the deposited data

Results flagged for a closer look

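In 236 groups of 4 libraries (nearly all of them 1 gene in 1 genotype at 20°C), 19 held a library that stood apart from the other 3 by more than Dixon's limit at the 95% level, where chance gives about 1 in 20. In *med14* these were *HSP17.6A* in replicate 4 (2.097 FPKM), *UGT75C1* in replicate 2 (2.61 FPKM), *ORA59* in replicate 1 (0.493 FPKM), *VSP2* in replicate 4 (0.523 FPKM), *SKIP20* in replicate 3 (20.2 FPKM), *MAF1* in replicate 2 (3.8002 FPKM), and *MAF5* in replicate 3 (0.198 FPKM). In *pif4-2* they were *HMR* in replicate 2 (27.6), *APD7* in replicate 2 (10.5), *RING* in replicate 3 (3.12), *ADS4* in replicate 4 (2.33), *THA1* in replicate 2 (0.297), *UGT75C1* in replicate 1 (15.1), *LDOX* in replicate 1 (17.5), *HSP70* in replicate 1 (4.16), *CSD1* in replicate 2 (97.01), *CSD3* in replicate 1 (15.97), *DIN4* in replicate 2 (11.3), and *PAO2* in replicate 1 (22.5). No single library accounts for them, although *pif4-2* replicate 1, which had the lowest share of nuclear fragments, was the low library for *UGT75C1*, *LDOX*, *HSP70*, *CSD3*, and *PAO2*.

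The 116 genes checked are those named by rule and the members of the copper, carbon starvation, and *FLC* lists and the neighbours of *PIF4* and *MED14*. For 50 of them the difference between *med14* and *pif4-2* differed between the temperatures (adjusted p under 0.05 by limma in 16 libraries), 15 with a value above 0 and 35 below 0. The values that follow are the log2 change at 27°C minus that at 20°C. Where the log2 change at 20°C was positive, the value was below 0 for *SEN1* (−2.71), *CP1* (−4.23), *THA1* (−1.74), *DTX9* (−2.59), *HSP17.6A* (−2.296), *CYP705A5* (−2.53), *HSP70* (−1.19), *HSFA7A* (−1.70), *XTH22* (−1.88), *KCS12* (−1.56), *MYB96* (−1.07), *FAR1* (−0.98), *BEE3* (−1.25), *ACO4* (−0.80), *COPT1* (−1.08), *COPT6* (−0.96), *BCE2* (−0.62), *DIN4* (−0.52), *DIN9* (−1.10), *DIN10* (−1.48), *MCCA* (−1.04), *IVD* (−1.304), *TPS8* (−1.29), *TPS11* (−1.29), *MAF4* (−0.79), and *IAA16* (−0.93), and above 0 for *CBP60G* (1.59). Where the log2 change at 20°C was negative, the value was above 0 for *XTH31* (1.15), *GSTF11* (1.05), *IMD1* (0.88), *NSP3* (1.28), *AOS* (0.72), *RD29A* (1.15), *PAL1* (0.59), *EXPB3* (0.52), *EXPA4* (0.79), *PHO1;H1* (1.34), *FRO4* (1.18), and *PAO2* (1.45), and below 0 for *GRP9* (−1.61), *DR4* (−1.43), *TGG2* (−0.97), *BGLU18* (−0.82), *VSP2* (−1.13), *LTI30* (−1.79), and *SKIP20* (−1.28). The genes *DTX49* (−1.85), *GH9B15* (−2.298), *KIN1* (2.87), and *FRO5* (2.22) were too low to be tested at 27°C, with means of at most 0.295 FPKM in *med14* and 0.455 in *pif4-2* there, so that their values rest on the levels at 20°C and on the pseudocount. Most of these genes were named for their change at 20°C, so that the balance of the counts is a description.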

How the results depend on the processing

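Counts of genes higher and lower in *med14* at 20°C (182 and 511) stayed within 1.5 times under other scalings between libraries, other filters, a pseudocount of 0.1, library weights, precision weights, and both other thresholds. Without rescaling they were 480 and 260, with a pseudocount of 1 the higher count was 119, and with the length trend removed the lower count was 325. With 1 library left out they ran from 106 to 193 and from 410 to 566. At 27°C, 643 genes were higher without rescaling, and 142 to 288 were higher and 459 to 994 lower with 1 library left out. For the difference between the temperatures, 261 and 1245 genes lay above and below 0 without rescaling, 462 and 1100 in a fit to all 8 groups, and 780 to 1256 and 1509 to 2223 with 1 library left out.

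Replicate numbers carry no stated pairing, and deviations of same-numbered libraries correlated at 0.06, 0.36, 0.04, and 0.34. Of the *med14* libraries, replicates 2 and 4 correlated best with their own number. With the replicate number as a block (replicate block), 197 genes were higher and 524 lower at 20°C, 267 and 669 at 27°C, and 1718 and 2383 for the difference. *CYP705A5*, *SAUR19*, *FSD1*, and *XCP2* were not called at 20°C with it.

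*PIF4* had a log2 change of 0.51 without rescaling (exact permutation p = 0.0286) and of 0.21 to 0.36 with 1 library left out. *HMR* ran from −0.47 to −0.24 and *MED14* from 0.96 to 1.06. *IAA19* turned positive without rescaling (0.19), with the length trend removed (0.17), without *pif4-2* replicate 1 (0.036), and without *med14* replicate 1 (0.081), and the lowest value was −0.17. Of the called genes named in the text, *YLS9*, *SAUR19*, *VSP2*, *HSP70*, *FLN1*, *FSD2*, *COPT2*, *MTPA2*, *XTH21*, *MYB96*, *FAR1*, *GA3OX1*, *CSD1*, *MCCA*, *ESP*, *ESM1*, *PAP1*, *FMO GS-OX2*, *CHIL*, and *GRP3S* were not called in a fit to all 8 groups. With a pseudocount of 1, *MED14*, *HSFA7A*, *HSP17.6A*, *SAUR19*, *SAUR36*, *MYB29*, *VSP2*, *FSD2*, *MTPA2*, *EXPA4*, *XTH5*, *XTH21*, *XTH32*, *FAR1*, *PHO1;H1*, *ESP*, *FMO GS-OX2*, and *IPMI1* were not called. The cause was not tested.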

Other observations

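Several abundant genes outside the lists were called between the mutants at 20°C, and were picked after their values were seen. Metallothioneins are small metal-binding proteins. *MT2B* averaged 919 FPKM in *med14* and 3431 in *pif4-2* (log2 change −1.90), and *MT2A* averaged 168 and 375 (log2 change −1.13). The cyclophilin genes *ROC5* and *ROC3*, whose proteins help others to fold, had log2 changes of −1.46 and −1.05. *CPN60A* and *CPN20*, which encode plastid chaperonins, had log2 changes of −1.14 and −1.17. *MT2A*, *ROC3*, *CPN60A*, and *CPN20* were not called without rescaling. At 27°C the log2 change of *MT2B* was −2.86, and that of *CPN60A* was −0.20.

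Among the genes higher in *med14*, *CAX1*, a vacuolar calcium exchanger gene, averaged 74.9 FPKM in *med14* and 27.9 in *pif4-2* (log2 change 1.42). *XCP2*, a xylem cysteine protease gene, averaged 41.8 and 15.6 (log2 change 1.42), and stood at 1.80 at 27°C. *FDH*, the formate dehydrogenase gene, averaged 24.3 and 6.71 (log2 change 1.79), and *STP1*, a sugar transporter gene, averaged 36.6 and 14.7 (log2 change 1.296). At 27°C their log2 changes were −0.01 and −0.56. The glycine-rich protein gene *GRP3S* was higher in *med14* at 20°C (694 and 303 FPKM, log2 change 1.17) and had a log2 change of −1.64 at 27°C.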
